A study of Mus musculus with 12 samples.

Results

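The report covers 42 genes of the p53 response and of DNA repair, chosen by name from a list of p53 targets, checkpoint kinases and genes of crosslink, homologous, excision, end-joining and mismatch repair. All 42 were among the 23479 genes of the table. Total RNA was sequenced from myeloid-derived suppressor cells of C57BL/6 mice that all carried B16 melanomas of over 25 mm2. These immature myeloid cells expand in animals with tumours and dampen T cell responses. They come in a monocytic form (M-MDSC) and a neutrophil-like, polymorphonuclear form (PMN-MDSC), both sorted here from spleen by flow cytometry to over 99% purity. Treated mice were lymphodepleted (LD) with cyclophosphamide and fludarabine, and their spleens were taken 7 days after treatment. Control mice (Ctrl) bore the same tumours and were untreated. The groups were M-MDSC LD, M-MDSC Ctrl, PMN-MDSC LD and PMN-MDSC Ctrl, with 3 libraries each. Dose, sex, age and the sort markers were not given in the sources used here, and no tumour-free mice were analysed.

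Cyclophosphamide is an alkylating drug whose active form crosslinks DNA strands, and fludarabine is a purine analogue that blocks DNA synthesis and repair. DNA breaks and stalled replication forks activate the kinases ATM and ATR, which act through CHK2 and CHK1 and stabilise p53. p53 is a transcription factor that switches on genes of arrest (Cdkn1a), death (Bbc3, Pmaip1) and repair (Xpc, Ddb2), and Mdm2, whose product degrades p53. Crosslinks are removed by the Fanconi anaemia pathway together with homologous recombination, which uses the sister chromatid as a template. Genes of that pathway are transcribed mainly in S and G2 phase, so their level also follows how many cells divide.

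Levels are normalized counts, that is, reads of a gene divided by the size factor of its library, and changes are log2 differences of (normalized count + 1) ± SE from limma. A change is called at an adjusted p (Benjamini-Hochberg over all 11122 genes tested) below 0.05. Tested genes had a mean of at least 10 over the 12 libraries, and 38 of the 42 genes passed this minimum. Libraries held 8906045 to 16242926 reads assigned to genes. The labels do not say whether replicates are separate mice, so p-values measure only the spread between these libraries, which may be technical. Summed monocyte markers, 9 of 9 in the table, ran from 66586.9 to 86915.5 in M-MDSC LD and from 96095.2 to 114853.7 in M-MDSC Ctrl, against 8378.7 to 10449.8 in PMN-MDSC LD and 10011.9 to 12553.4 in PMN-MDSC Ctrl. Neutrophil markers, 9 of 10 in the table, ran from 18295.7 to 81831.5 in M-MDSC LD, 7110.9 to 8251.4 in M-MDSC Ctrl, 740613.4 to 833108.2 in PMN-MDSC LD and 452664.2 to 474809.1 in PMN-MDSC Ctrl. Every M-MDSC library thus lay above every PMN-MDSC library in summed monocyte markers and below it in summed neutrophil markers. Within M-MDSC LD replicate 1, however, the neutrophil markers summed to 81831.5, more than the monocyte markers (66586.9). The marker Ly6g was not analysed here. Summed T cell markers, 5 of 6 in the table, ran from 3 to 25.4 in M-MDSC LD, 4.5 to 10.5 in M-MDSC Ctrl, 32.5 to 150 in PMN-MDSC LD and 35.7 to 46.6 in PMN-MDSC Ctrl. Summed B and plasma cell markers, 6 of 7 in the table, ran from 32.5 to 62 in M-MDSC LD, against 129.7 to 395.2 in M-MDSC Ctrl, and from 4.2 to 27.1 in PMN-MDSC LD, against 73.4 to 145.9 in PMN-MDSC Ctrl. Cd3e and Cd8a were at 0 in the LD libraries of both populations. Cd3d, by contrast, had 25.7, 128 and 51.9 in PMN-MDSC LD, against 7.1, 23.7 and 20.8 in PMN-MDSC Ctrl. The part of these cells in the results was not tested.

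LD replicate 1 stood apart in both populations. Its Mki67, a marker of dividing cells, was 8133.0 in M-MDSC against 2434.4 and 3200.8 in the other M-MDSC LD libraries, and 6242.0 in PMN-MDSC against 1260.5 and 2024.9. It was the highest of the 3 LD libraries for 21 of the 38 tested members in M-MDSC (55.3%, against 35.6% of all genes tested) and for 19 of 38 in PMN-MDSC (50%, against 35%). Among the 8 members of homologous and crosslink repair the number was 7 in each population, whereas among the 15 tested p53 targets (the roles of arrest, death, stress and p53-linked repair) it was 3 in M-MDSC and 5 in PMN-MDSC. Changes of several members are therefore also given without these libraries, but those of the division markers and of the other pathway genes are not. In bulk RNA, fewer cells that express a gene and less of its RNA per cell cannot be told apart. Reads from opposite strands of overlapping genes may also mix, because strandedness was not stated. Of the 42 genes, 16 share exon bases with another annotated gene, most of all Ercc2 (42.7% of its exon bases), Ddb2 (23.8%, with Acp2), Fanci (16.0%, with Polg), Rad54l (15.4%, with Lrrc41) and Fanca (10.5%, with Zfp276), so their values are less certain.

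Promoter sequence was searched for motifs of the p53 response and of the cell cycle. RefSeq windows of build GRCm38.p6, from 250 bases before to 50 after a transcript start, were on hand for 33 of the 42 genes, leaving out Ddb2, Exo1, Fancd2, Pmaip1, Prkdc, Rrm2b, Trp53inp1, Xpc and Zmat3. On both strands, the p53 consensus (a repeated motif with at most 2 mismatches in all and up to 13 bases between the repeats) was found in Cdkn1a and Ccng1, 2 of 33 genes (6.06%, against 4.71% of all 27025 genes with a window). Both genes rose in PMN-MDSC after LD and did not pass in M-MDSC, with log2 differences of -0.10 (Cdkn1a) and -0.11 (Ccng1) there. A test of whether the change differed between the populations did not pass (adjusted p = 0.185 for Cdkn1a and 0.095 for Ccng1, limma). Aen, Btg2 and Atm, which fell in PMN-MDSC, had windows without a match. Trp53inp1, which also rose in PMN-MDSC, had no window, and a link between match and change was not tested. The windows of Cdkn1a and Ccng1 that hold the p53 consensus are shown on the strand of the gene, with the matched letters in capitals. The Cdkn1a window is chr17:29090729-29091028 (plus strand) and lies at the upstream start, while the window at its other listed start held no match. The Ccng1 window is chr11:40755237-40755536 (minus strand).
Cdkn1a: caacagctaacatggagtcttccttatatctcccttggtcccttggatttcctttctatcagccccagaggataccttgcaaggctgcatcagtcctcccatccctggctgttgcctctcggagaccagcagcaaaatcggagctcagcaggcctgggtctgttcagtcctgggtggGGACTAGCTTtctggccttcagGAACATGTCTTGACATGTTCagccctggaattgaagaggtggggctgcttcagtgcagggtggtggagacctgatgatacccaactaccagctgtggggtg
Ccng1: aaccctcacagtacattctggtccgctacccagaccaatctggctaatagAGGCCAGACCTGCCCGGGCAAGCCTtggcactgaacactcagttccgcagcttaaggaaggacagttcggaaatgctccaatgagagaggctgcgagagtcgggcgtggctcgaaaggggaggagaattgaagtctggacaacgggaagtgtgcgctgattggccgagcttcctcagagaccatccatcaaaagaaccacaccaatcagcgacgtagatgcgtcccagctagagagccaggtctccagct

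In both windows the matched letters lie before the transcript start. The E2F motif (TTTCCCGC, TTTCGCGC, TTTGCCGC or TTTGGCGC on either strand), which marks many genes of S phase, was in the windows of Chek2, Brca2, Xrcc6 and Msh6, 4 of 33 (12.1%, against 2.6% of all genes). CCAAT, the letters bound by NF-Y, was in 19 of 33 (57.6%, against 41.1%). The CHR motif (TTTGAA or TTCGAA) was in 2, Aen and Atr (6.06%, against 21.7%). The Brca2 window, chr5:150522371-150522670 (plus strand), is shown with the E2F letters in capitals. Brca2 had the largest log2 difference among the members in M-MDSC after LD, but did not pass limma. A match is a run of letters and not a measured binding site.
Brca2: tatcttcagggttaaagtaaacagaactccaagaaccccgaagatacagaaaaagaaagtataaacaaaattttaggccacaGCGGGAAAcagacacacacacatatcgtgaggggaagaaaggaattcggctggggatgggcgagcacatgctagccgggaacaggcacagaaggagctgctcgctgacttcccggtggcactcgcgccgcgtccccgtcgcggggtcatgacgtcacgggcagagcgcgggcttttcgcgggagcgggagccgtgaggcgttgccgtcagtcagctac

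In PMN-MDSC, 3 of 38 members rose after LD (7.17% of all genes tested rose) and 4 fell (8.51% of all genes tested fell), so the shares of members called, 7.89% and 10.5%, were near those of all genes. The median log2 difference was -0.07 over the members and -0.05 over all genes tested. The p53 targets did not move as a block. Cdkn1a, Ccng1 and Trp53inp1 rose, Aen and Btg2 fell, and p53 itself and its inhibitor Mdm2 did not pass the test. The other genes that fell were Atm, the kinase that senses double-strand breaks, and Prkdc, the catalytic kinase of end joining.

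**Figure D1:**
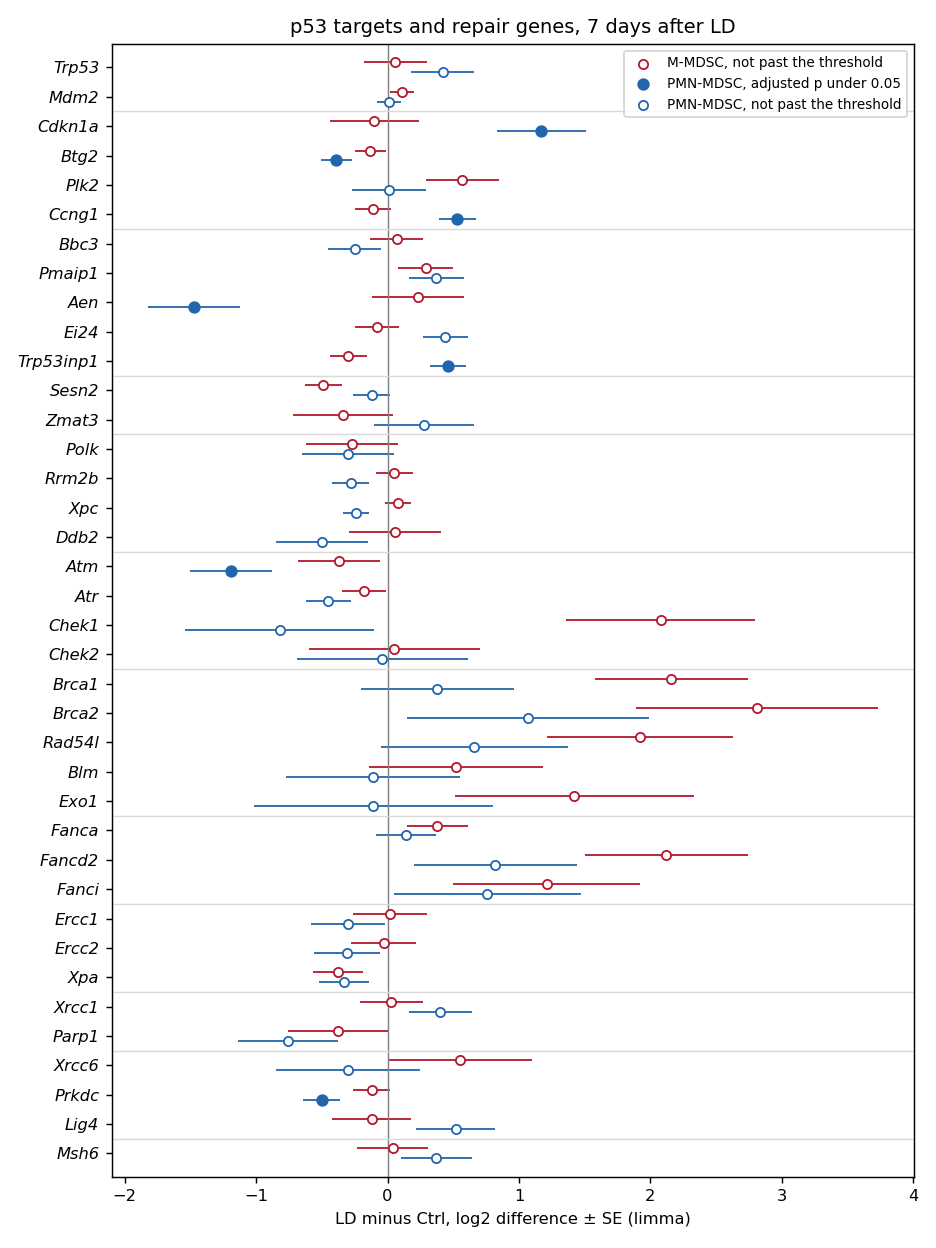
Log2 difference of LD minus Ctrl, with SE, for the 38 tested members in M-MDSC (red) and PMN-MDSC (blue), in order of role with grey lines between roles. Filled points passed an adjusted p of 0.05. All 7 filled points are in PMN-MDSC, and the largest red values are those of Brca2, Brca1, Fancd2 and Chek1.

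Cdkn1a (mm10 chr17:29090976-29100727) encodes p21, the inhibitor of cyclin-dependent kinases through which p53 arrests the cycle. It had 43.3, 41.2 and 21 normalized counts in PMN-MDSC LD, against 13.3, 17.6 and 12.8 in PMN-MDSC Ctrl. All LD libraries were above all Ctrl libraries, at low counts of 75 reads in LD and 41 in Ctrl. The log2 difference was 1.17 ± 0.34, 2.24-fold, with an adjusted p of 0.0335 (limma). Its exons share 7.68% of their bases with a gene on the opposite strand.

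Ccng1 (chr11:40748552-40755311) encodes cyclin G1, a p53 target that feeds back on p53 through MDM2. Its levels were 858.9, 894.3 and 1011.1 in PMN-MDSC LD and 728.4, 671.5 and 523.6 in PMN-MDSC Ctrl. The groups did not overlap, and the rise of 0.53 ± 0.14 (1.45-fold) had an adjusted p of 0.0181 (limma). Trp53inp1 (chr4:11156431-11174379) encodes a stress protein that promotes p53-dependent death and autophagy. It had 5548.2, 7439.7 and 7792.6 in PMN-MDSC LD, against 5183.2, 4358.6 and 5420.7 in PMN-MDSC Ctrl. The lowest LD library was just above the highest Ctrl library, and the rise was 0.46 ± 0.14 (1.38-fold, adjusted p = 0.0378, limma).

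Aen (chr7:78895854-78911209), a p53-induced nuclease that helps digest DNA in dying cells, fell the most. It had 9.5, 8.8 and 12.6 in PMN-MDSC LD, against 33.7, 20.2 and 39.9 in PMN-MDSC Ctrl. That is 22 reads over the LD libraries and 81 over the Ctrl libraries, with no overlap. The log2 difference was -1.47 ± 0.35, 2.78-fold lower, with an adjusted p of 0.0118 (limma). Btg2 (chr1:134075170-134079120), an antiproliferative p53 target that is also an immediate early gene, had 7957.1, 9894.6 and 10370.0 in PMN-MDSC LD, against 10664.2, 12380.6 and 14030.7 in PMN-MDSC Ctrl. Every LD library was below every Ctrl library, and Btg2 fell by 0.39 ± 0.12 on the log2 scale (1.31-fold lower, adjusted p = 0.036, limma).

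Atm (chr9:53439149-53536740) had 56.8, 41.2 and 18.2 in PMN-MDSC LD, against 64.3, 87.9 and 95.8 in PMN-MDSC Ctrl. The ranges lay close together without overlap, and Atm fell by 1.19 ± 0.31 on the log2 scale (2.29-fold lower, adjusted p = 0.0187, limma). Prkdc (chr16:15637866-15842235) had 112.3, 122.1 and 131.8 in PMN-MDSC LD, against 179.5, 150.3 and 189.9 in PMN-MDSC Ctrl. It fell by 0.50 ± 0.14 on the log2 scale (1.41-fold lower, adjusted p = 0.0237, limma), again without overlap. Atr, the kinase of stalled forks, had 96.0, 108.8 and 108.0 in PMN-MDSC LD and 142.8, 138.9 and 145.3 in PMN-MDSC Ctrl. Its groups did not overlap either, but the difference of -0.45 ± 0.17 missed the threshold (adjusted p = 0.0921, limma).

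**Figure D2:**
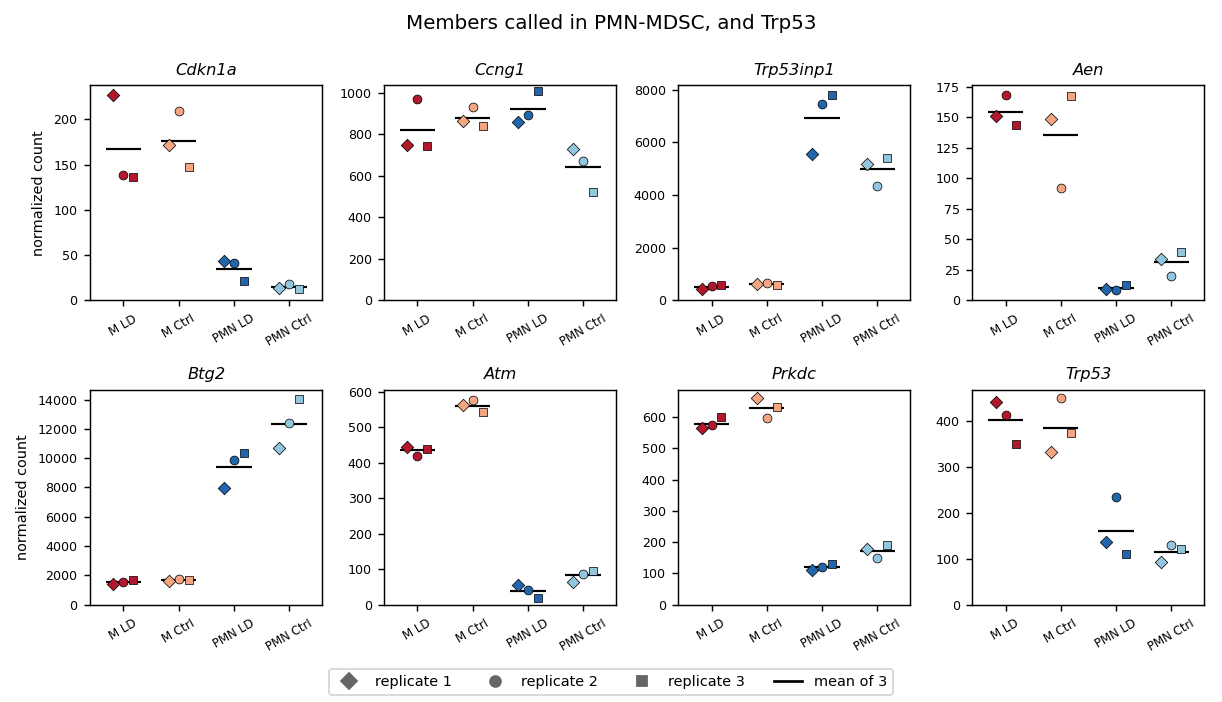
Normalized counts of the 7 members called in PMN-MDSC and of Trp53 in all 12 libraries, with a linear axis from 0 in each panel, a symbol per replicate number and a line at the mean of 3. In PMN-MDSC, Cdkn1a, Ccng1 and Trp53inp1 lie higher in LD, Aen, Btg2, Atm and Prkdc lie lower in LD, and the LD and Ctrl points of Trp53 overlap.

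All 7 calls also passed with edgeR (15.7% of all genes called in either direction) and with DESeq2 (19.5%) on the recovered reads. DESeq2 added Parp1, the poly(ADP-ribose) polymerase that marks single-strand breaks (log2 difference -0.99, adjusted p = 0.0487). The calls were not firm against single libraries. Among 12 limma fits that each left out 1 library, Aen stayed past the threshold in 11, Ccng1, Atm and Prkdc in 10 each, Cdkn1a and Btg2 in 6 each, and Trp53inp1 in 5. Without PMN-MDSC Ctrl replicate 3 none of the 38 members passed, and these 7 genes had adjusted p from 0.058 (Aen) to 0.158 (Btg2). Without PMN-MDSC LD replicate 1, Cdkn1a had a log2 difference of 0.99 (adjusted p = 0.0731) and Btg2 of -0.28 (adjusted p = 0.0968), whereas Polk (-0.80, adjusted p = 0.0376) and Xrcc6 (-1.14, adjusted p = 0.0432) then passed. In a fit of the PMN-MDSC groups alone, Ccng1 and Trp53inp1 passed and the other 5 genes did not (adjusted p from 0.0699 to 0.161).

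Trp53 itself had 135.3, 233.9 and 110.8 in PMN-MDSC LD and 92.8, 130.1 and 121.3 in PMN-MDSC Ctrl, which overlap (log2 difference 0.42 ± 0.24, adjusted p = 0.265, limma). Mdm2 was almost level, at 2092.4, 2437.2 and 2427.4 in LD and 2347.3, 2316.9 and 2233.1 in Ctrl. Its log2 difference of 0.01 had a 95% interval of -0.18 to 0.20. The genes of p53-driven death, Bbc3 (Puma) and Pmaip1 (Noxa), both opposing survival proteins of the BCL-2 family, also overlapped between groups. Bbc3 had 209.6, 178.0 and 137.4 in PMN-MDSC LD and 219.3, 225.0 and 175.6 in PMN-MDSC Ctrl, a difference of -0.25 ± 0.20. Pmaip1 had 2789.0, 3847.8 and 2916.8 in PMN-MDSC LD and 2834.9, 3255.6 and 1585.0 in PMN-MDSC Ctrl, a difference of 0.37 ± 0.21. Adjusted p was 0.421 for Bbc3 and 0.256 for Pmaip1 (limma).

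The remaining p53 targets in PMN-MDSC did not pass the test. Ei24, a p53-induced endoplasmic reticulum protein, had 186.7, 148.6 and 171.1 in LD and 132.6, 104.6 and 137.3 in Ctrl, without overlap (0.44 ± 0.17, adjusted p = 0.0915, limma). Sesn2, a stress protein that restrains mTORC1, overlapped between groups (-0.12 ± 0.14), as did Plk2, a kinase (0.01 ± 0.28), and Zmat3, an RNA-binding protein (0.28 ± 0.38). Rrm2b, the p53-inducible subunit of ribonucleotide reductase, and Xpc, which detects lesions for nucleotide excision, lay lower in every LD library than in any Ctrl library. Xpc had 3312.4, 3786.0 and 3608.1 in PMN-MDSC LD, against 4193.7, 4492.2 and 3966.6 in PMN-MDSC Ctrl. The differences were -0.24 ± 0.10 for Xpc (adjusted p = 0.104, limma) and -0.28 ± 0.14 for Rrm2b (adjusted p = 0.197, limma). Polk (-0.30 ± 0.35) and Ddb2 (-0.50 ± 0.35) overlapped. Among the genes of checkpoint and excision, Chek1 had 33.8, 17.7 and 32.3 in PMN-MDSC LD, against 37.7, 43.9 and 67.0 in PMN-MDSC Ctrl, without overlap (-0.82 ± 0.72, adjusted p = 0.473, limma). Chek2 (-0.04 ± 0.65), Xpa (-0.33 ± 0.19), Xrcc1 (0.40 ± 0.24), Xrcc6 (-0.30 ± 0.55) and Parp1 (-0.76 ± 0.38) overlapped and did not pass.

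In M-MDSC, 0 of 38 members passed limma after LD, against 3.01% of all genes tested in either direction, and 6 members were at an unadjusted p under 0.05. On the recovered reads edgeR called 1 member higher (3.49% of all genes) and DESeq2 called 5 higher (4.94% of all genes), Brca1, Brca2, Fancd2, Rad54l and Chek1. These 5 genes act in replication-fork signalling and in the homologous and crosslink pathways. The median log2 difference was 1.92 over the 5 homologous repair members and 1.21 over the 3 crosslink members, against 0.05 over all 38 members and -0.04 over all genes tested. Without LD replicate 1 of both populations, the middle crosslink member, Fanci, had a difference of 0.47, and the homologous members ranged from -0.19 (Blm) to 2.11 (Brca2), with Exo1 not tested. None of these 15 p53 targets passed with limma, edgeR or DESeq2.

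Brca1 (chr11:101488764-101551955) acts in the resection of breaks and in homologous recombination. It had 355.0, 85.8 and 96.5 in M-MDSC LD, against 40.2, 26.8 and 28.6 in M-MDSC Ctrl. Every LD library was above every Ctrl library, with LD replicate 1 far above the others. The log2 difference was 2.16 ± 0.58 (4.46-fold), with an adjusted p of 0.0631 in limma, 0.0399 in edgeR and 0.00117 in DESeq2. Without M-MDSC LD replicate 1 it was 1.51, with an adjusted p of 0.235 (limma), and leaving out LD replicate 1 of both populations gave an adjusted p of 0.0172 for that value. Of the 12 limma fits that each left out 1 library, Brca1 passed in 2.

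Brca2 (chr5:150522630-150570329) acts later in homologous recombination than Brca1. It had 198.5, 31.4 and 64.0 in M-MDSC LD, against 20.8, 1.0 and 27.5 in M-MDSC Ctrl. The LD and Ctrl libraries did not overlap, but their nearest values were 31.4 and 27.5. Its log2 difference was 2.81 ± 0.92 (adjusted p = 0.134, limma) and 2.11 without LD replicate 1 of both populations (adjusted p = 0.297). Without M-MDSC Ctrl replicate 2, which held 1 Brca2 read, it was 1.59 (adjusted p = 0.437, limma). Fancd2, the protein ubiquitinated at crosslinks, had 120.3, 38.2 and 52.2 in M-MDSC LD, against 13, 10.5 and 18 in M-MDSC Ctrl. All LD libraries were above the highest Ctrl library, with a difference of 2.12 ± 0.62 (adjusted p = 0.0825, limma). It was 1.66 without LD replicate 1 of both populations (adjusted p = 0.134, limma). Leaving out M-MDSC LD replicate 1 alone gave Fancd2 an adjusted p of 0.301 (limma). Rad54l, a motor protein of strand exchange, had 160.8, 34 and 35.5 in M-MDSC LD, against 24, 10.5 and 12.3 in M-MDSC Ctrl. Its difference was 1.92 ± 0.71 (adjusted p = 0.205, limma) and 1.19 without LD replicate 1 of both populations (adjusted p = 0.462, limma). Leaving out M-MDSC LD replicate 1 alone gave Rad54l an adjusted p of 0.607 (limma).

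Exo1, the nuclease that resects breaks, had 79.7, 20.4 and 13.8 in M-MDSC LD, against 12.3, 7.7 and 10.7 in M-MDSC Ctrl (1.42 ± 0.91, adjusted p = 0.611, limma). Fanci, the partner of Fancd2, had 97.8, 14.4 and 27.6 in M-MDSC LD, against 11, 14.4 and 18 in M-MDSC Ctrl (1.21 ± 0.71, adjusted p = 0.545, limma). Blm, the Bloom helicase, had 244.1, 67.9 and 45.3 in M-MDSC LD, against 51.9, 69.9 and 70.1 in M-MDSC Ctrl (0.52 ± 0.66, adjusted p = 0.877, limma). Fanci and Blm thus stood above Ctrl mainly in LD replicate 1, and Blm without that replicate had a difference of -0.19. Fanca, a core subunit of the crosslink pathway, was the exception, with 284.0, 309.1 and 375.3 in M-MDSC LD and 257.5, 245.0 and 237.9 in M-MDSC Ctrl (0.38 ± 0.23, adjusted p = 0.559, limma), its lowest LD value in replicate 1.

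Chek1, the kinase downstream of ATR, had 60.1, 7.6 and 27.6 in M-MDSC LD, against 1.3, 5.7 and 11.8 in M-MDSC Ctrl. The groups overlapped, with a difference of 2.08 ± 0.72 (adjusted p = 0.161, limma). Without LD replicate 1 of both populations the Chek1 difference was 1.43 (adjusted p = 0.418, limma). Markers of division moved with these genes. Mki67 had 8133.0, 2434.4 and 3200.8 in M-MDSC LD, against 954.6, 775.1 and 774.7 in M-MDSC Ctrl (2.26 ± 0.47, adjusted p = 0.0145, limma), and Top2a and Ccna2 also rose (2.42 ± 0.50 and 3.30 ± 0.54). The 10 cycling markers summed to 4725.3 to 14575.2 in M-MDSC LD and 1917.4 to 2164.7 in M-MDSC Ctrl. Of these, Ccnb1 and Cdk1 passed as well, while Ccnb2, Mcm2, Mcm3, Mcm5 and Pcna did not (adjusted p from 0.113 to 0.534, limma). The 8 granulocyte-monocyte progenitor markers summed to 1704.2 to 7862.8 in M-MDSC LD and 261.2 to 322 in M-MDSC Ctrl, with Mpo at 4385.6, 991.8 and 1195 in LD against 85, 75.6 and 120 in Ctrl. They summed to 325.1 to 1075.3 in PMN-MDSC LD and 225 to 287.3 in PMN-MDSC Ctrl. In PMN-MDSC Mpo, Elane and Prtn3 were called higher by limma, and Ctsg, Kit, Myb, Cd34 and Ms4a3 did not pass. Summed neutrophil markers also lay above Ctrl in every M-MDSC LD library, as given above, and no marker of these lists was at 0 in all libraries of a group. The part of these markers in the repair gene values was not tested.

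**Figure D3:**
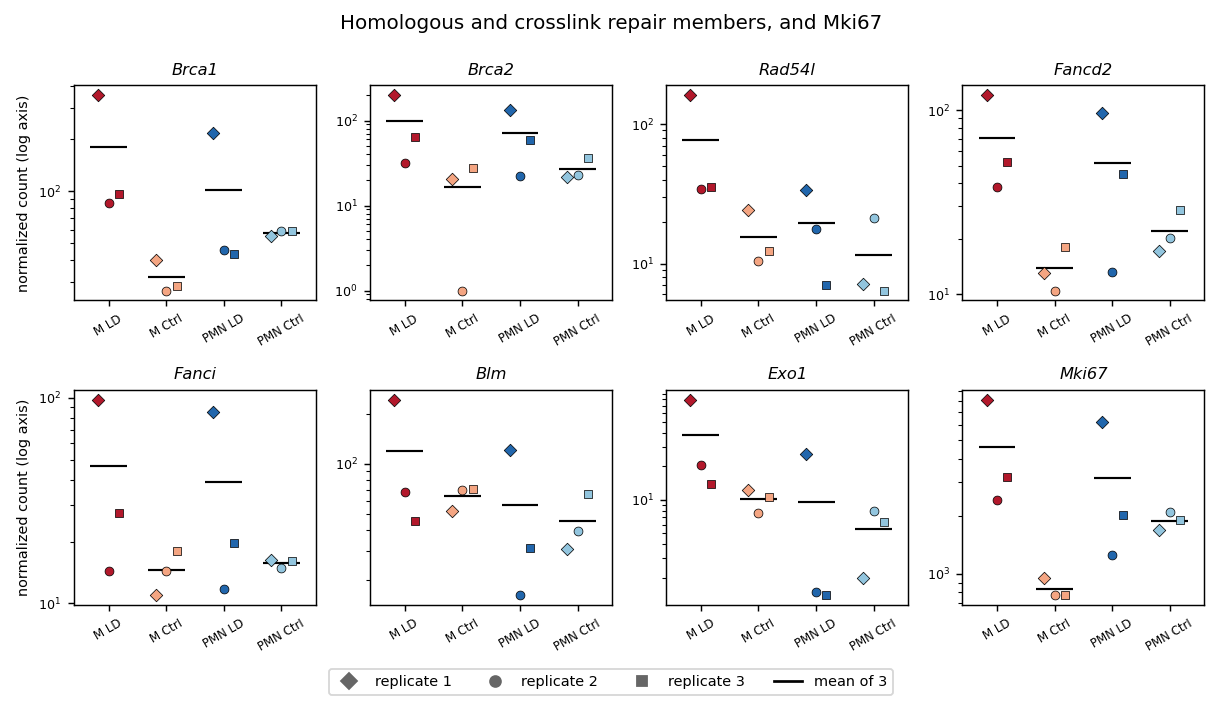
Normalized counts, on a log axis, of 7 homologous and crosslink repair members and of Mki67 in all 12 libraries, with a symbol per replicate number and a line at the mean of 3. LD replicate 1 (diamond) is the highest LD library in each panel of both populations. The other LD libraries lie above all Ctrl libraries in M-MDSC for Brca1, Brca2, Rad54l, Fancd2, Exo1 and Mki67, but overlap the Ctrl libraries in PMN-MDSC for Brca2, Rad54l, Fancd2, Fanci and Mki67.

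In PMN-MDSC the same repair genes showed no change past the threshold, and LD replicate 1 carried most of their excess. Brca1 had 215.1, 45.6 and 43.5 in PMN-MDSC LD, against 55.1, 58.9 and 59.1 in PMN-MDSC Ctrl. It was high in replicate 1 and below Ctrl in the others, with a difference of 0.38 ± 0.58 (adjusted p = 0.698, limma) and of -0.37 without that replicate. Brca2 had 133.9, 22.1 and 58.9 in PMN-MDSC LD and 21.4, 22.9 and 36.7 in PMN-MDSC Ctrl (1.07 ± 0.92, adjusted p = 0.465, limma). The differences were 0.66 ± 0.71 for Rad54l, -0.11 ± 0.66 for Blm, -0.11 ± 0.91 for Exo1, 0.76 ± 0.71 for Fanci and 0.14 ± 0.23 for Fanca. Fancd2 had 96.0, 13.2 and 44.9 in PMN-MDSC LD and 17.3, 20.2 and 28.7 in PMN-MDSC Ctrl (0.82 ± 0.62, adjusted p = 0.397, limma). Mki67 likewise did not pass there (0.41 ± 0.47, adjusted p = 0.585, limma), at 6242.0, 1260.5 and 2024.9 in PMN-MDSC LD and 1688.3, 2097.1 and 1901.1 in PMN-MDSC Ctrl. Across the 7 repair members other than Fanca, replicate 1 was 2.66-fold (Fancd2) to 4.66-fold (Exo1) the mean of the other LD libraries in M-MDSC and 2.74-fold (Rad54l) to 17.9-fold (Exo1) in PMN-MDSC, where the other Exo1 libraries held single reads.

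The p53 targets in M-MDSC lay close to Ctrl. Cdkn1a had 226.7, 138.4 and 136.0 in M-MDSC LD and 171.2, 209.6 and 147.5 in M-MDSC Ctrl, which overlap (-0.10 ± 0.34, 95% interval -0.84 to 0.63). Ccng1 had 749.8, 971.4 and 742.8 in M-MDSC LD and 864.5, 933.9 and 840.9 in M-MDSC Ctrl (-0.11 ± 0.14). Sesn2 had 102.1, 123.1 and 117.2 in M-MDSC LD, against 166.7, 167.5 and 146.4 in M-MDSC Ctrl. Every LD library of Sesn2 was lower, with a difference of -0.49 ± 0.14 and an adjusted p of 0.0787 (limma). Trp53 had 441.2, 411.0 and 348.7 in M-MDSC LD and 331.4, 448.8 and 373.6 in M-MDSC Ctrl (0.06 ± 0.24). The 95% interval of Mdm2 ran from -0.08 to 0.31. Plk2 lay higher in every M-MDSC LD library, at 56.5, 38.2 and 38.4 against 20.8, 32.5 and 35.9 in M-MDSC Ctrl (0.57 ± 0.28, adjusted p = 0.401, limma). Zmat3 lay lower in every LD library (-0.34 ± 0.38, adjusted p = 0.854, limma). Bbc3, Pmaip1, Aen, Ei24, Btg2, Polk, Rrm2b, Xpc and Ddb2 overlapped between the groups, with differences from -0.27 (Polk) to 0.29 (Pmaip1).

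Kinases and excision, end-joining and mismatch genes showed no call in M-MDSC with limma on all groups. Atm had 444.8, 419.5 and 439.4 in M-MDSC LD, against 562.9, 577.0 and 541.9 in M-MDSC Ctrl, without overlap (-0.37 ± 0.31, adjusted p = 0.763, limma). Atr (-0.18 ± 0.17), Chek2 (0.05 ± 0.65), Prkdc (-0.12 ± 0.14) and Xrcc1 (0.03 ± 0.24) overlapped. Parp1 had 839.6, 923.0 and 856.1 in M-MDSC LD, against 1099.9, 1118.6 and 1196.6 in M-MDSC Ctrl. The groups did not overlap, with a difference of -0.38 ± 0.38 (adjusted p = 0.818, limma). In a fit of the M-MDSC groups alone, whose spread leaves out the scattered PMN-MDSC values, the adjusted p was 0.0322. Xpa, the scaffold of nucleotide excision, had 152.1, 198.7 and 202.0 in M-MDSC LD, against 212.1, 264.1 and 241.8 in M-MDSC Ctrl (-0.38 ± 0.19, adjusted p = 0.417, limma). Xrcc6 (Ku70) had 184.7, 173.2 and 124.1 in M-MDSC LD, against 115.4, 92.8 and 116.7 in M-MDSC Ctrl (0.55 ± 0.55, adjusted p = 0.823, limma). Lig4, the ligase of end joining, overlapped in M-MDSC (-0.12 ± 0.30) and in PMN-MDSC (0.52 ± 0.30), and so did Msh6 (0.04 ± 0.27 and 0.37 ± 0.27), a subunit of the mismatch sensor. Ercc1 and Ercc2, the incision nuclease subunit and a helicase of nucleotide excision, had differences of 0.02 ± 0.28 and -0.03 ± 0.25 in M-MDSC and -0.30 ± 0.28 and -0.31 ± 0.25 in PMN-MDSC.

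Whether LD changed the members differently in M-MDSC than in PMN-MDSC was tested as the difference of the LD changes. With limma 0 of 38 members passed (2.25% of all genes tested did, in either direction), and 8 were at an unadjusted p under 0.05. DESeq2 called Aen, Chek1 and Trp53inp1. Trp53inp1 had a difference of -0.76 ± 0.20 (adjusted p = 0.0623, limma), with values in M-MDSC LD (425.2, 526.4 and 591.1) below those in M-MDSC Ctrl (636.2, 650.7 and 592.4) and the opposite in PMN-MDSC. Aen differed by 1.70 ± 0.49 (adjusted p = 0.0829, limma), at 151.4, 168.1 and 143.8 in M-MDSC LD and 148.5, 91.9 and 167.2 in M-MDSC Ctrl. Ccng1 differed by -0.64 ± 0.19 (adjusted p = 0.095), Cdkn1a by -1.27 ± 0.48 (adjusted p = 0.185) and Chek1 by 2.90 ± 1.02 (adjusted p = 0.15). Brca1 differed by 1.77 ± 0.82 (adjusted p = 0.275, limma). Without LD replicate 1 of both populations, Brca1 (1.87, adjusted p = 0.0284) and Trp53inp1 (-0.78, adjusted p = 0.0079) passed. Leaving out M-MDSC LD replicate 1 alone gave 1.12 for Brca1 (adjusted p = 0.475). Each of these 2 genes passed in 1 of the 12 limma fits that left out 1 library, and the adjusted p of Trp53inp1 reached 0.144.

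More members differed between the populations than between treatments, and so did more of all genes tested. In LD mice 18 of 38 were higher in M-MDSC (38.8% of all genes tested were) and 10 were lower (36.1% of all genes), and in Ctrl mice 17 were higher (38.8%) and 11 lower (36.8%). The members' shares, 47.4% and 26.3% in LD and 44.7% and 28.9% in Ctrl, were above those of all genes for the higher calls and below them for the lower calls, and no test of that was made. Of the 4 checkpoint kinases, 3 were higher in M-MDSC in each treatment, Atm, Atr and Chek2.

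**Figure D4:**
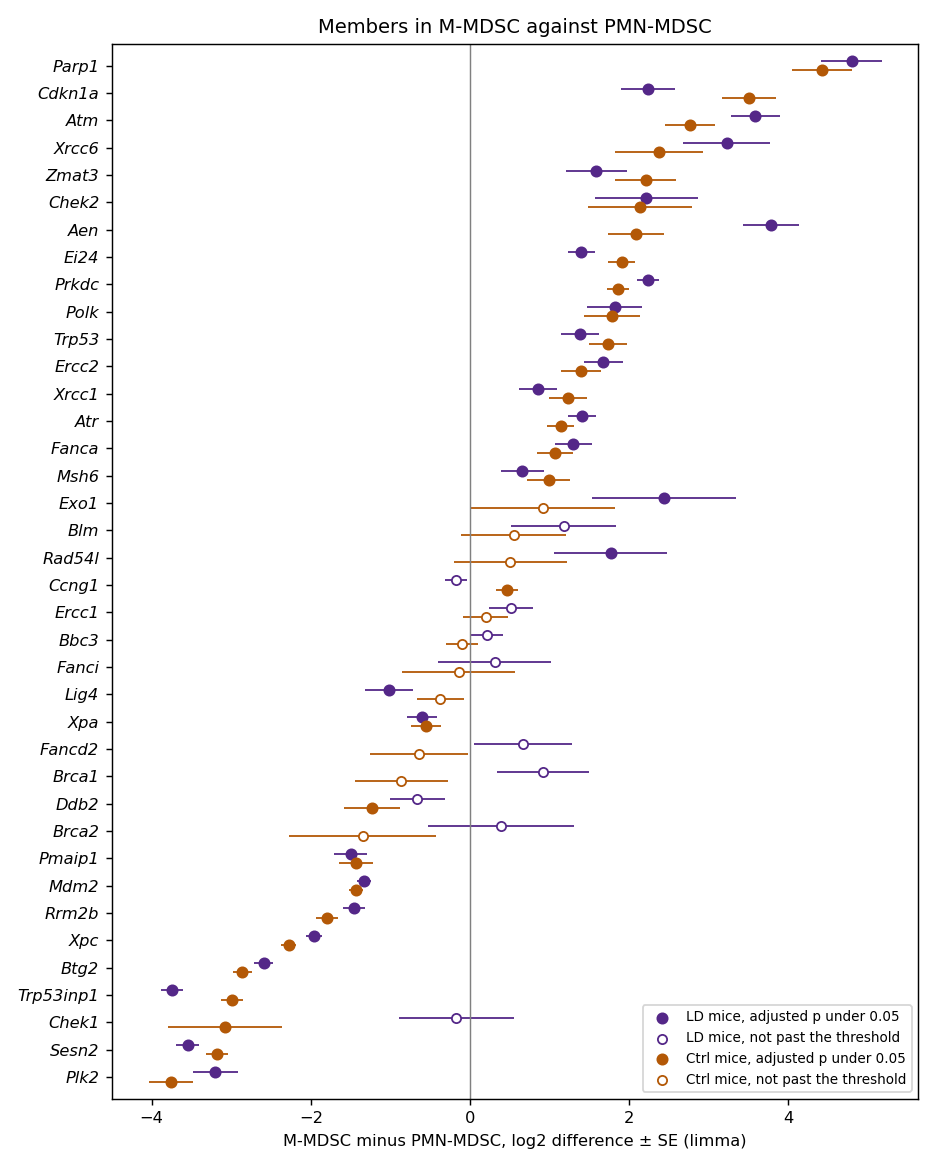
Log2 difference of M-MDSC minus PMN-MDSC, with SE, for the 38 tested members in LD mice (purple) and Ctrl mice (orange), in the order of the Ctrl values. Filled points passed an adjusted p of 0.05. Parp1 is highest, at 4.80 in LD and 4.43 in Ctrl. Trp53inp1 in LD (-3.75) and Plk2 in Ctrl (-3.76) are lowest, and no homologous repair gene passed in Ctrl mice.

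Parp1 in Ctrl mice had 1099.9, 1118.6 and 1196.6 in M-MDSC, against 116.3, 29.9 and 39.9 in PMN-MDSC (4.43 ± 0.38, 21.5-fold, adjusted p = 6.35e-08, limma). Cdkn1a was higher in M-MDSC by 2.24 ± 0.34 in LD and by 3.51 ± 0.34 in Ctrl mice. Atm was higher by 3.59 ± 0.31 in LD and 2.77 ± 0.31 in Ctrl, and Prkdc by 2.24 ± 0.14 in LD and 1.86 ± 0.14 in Ctrl. Trp53, whose transcript was detected in every library, was 3.34-fold higher in M-MDSC Ctrl than in PMN-MDSC Ctrl. Xrcc6, Chek2, Aen, Zmat3, Ei24 and Polk, a translesion polymerase, were also higher in both treatments, as were Atr, Fanca, Ercc2, Xrcc1, the scaffold of single-strand break repair, and Msh6. Rad54l (1.77 ± 0.71) and Exo1 (2.44 ± 0.91) passed in LD mice and not in Ctrl mice. Without M-MDSC LD replicate 1, Msh6 (adjusted p = 0.204) and Rad54l (adjusted p = 0.2) did not pass limma in LD mice. Exo1 overlapped between the LD groups and missed with edgeR (adjusted p = 0.055), DESeq2 (0.0529) and limma on the LD groups alone (0.0673). It also missed in limma without PMN-MDSC LD replicate 2 (0.0984) or replicate 3 (0.102).

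In the other direction, Trp53inp1 was 13.4-fold lower in M-MDSC LD than in PMN-MDSC LD (-3.75 ± 0.14) and 7.92-fold lower in M-MDSC Ctrl than in PMN-MDSC Ctrl (-2.99 ± 0.14). Plk2, Sesn2 and Btg2 were lower in M-MDSC in Ctrl mice, with log2 differences of -3.76 ± 0.28, -3.18 ± 0.14 and -2.86 ± 0.12. Mdm2, Pmaip1, Rrm2b, Xpc and Xpa were lower in M-MDSC in both treatments. Xpc, for example, had 873.5, 849.7 and 870.6 in M-MDSC Ctrl, against 4193.7, 4492.2 and 3966.6 in PMN-MDSC Ctrl. Ddb2, a damaged-DNA-binding protein, did not pass in LD (-0.66 ± 0.35) and passed in Ctrl (-1.23 ± 0.35). Chek1 had a difference of -0.17 ± 0.72 in LD mice. In Ctrl mice it was lower in M-MDSC (-3.08 ± 0.72), where it had 1.3, 5.7 and 11.8, against 37.7, 43.9 and 67.0 in PMN-MDSC Ctrl. Lig4 passed in LD mice (-1.02 ± 0.30) and not in Ctrl mice (-0.37 ± 0.30), but the difference of its LD changes was -0.65 ± 0.42 (adjusted p = 0.451, limma).

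Per kilobase of exon, the levels of the members ranged widely. In PMN-MDSC Btg2 had the highest mean, 3430.0 per kb in LD and 4510.0 in Ctrl, followed by Pmaip1 (1170.0 and 936.0) and Trp53inp1 (1070.0 and 770.0). In M-MDSC Btg2 again led, at 566.0 per kb in LD and 616.0 in Ctrl, followed by Pmaip1 (408.0 and 334.0). Xpc in PMN-MDSC (650.0 and 768.0) came next, with a Ctrl mean close to that of Trp53inp1. The homologous repair genes were low throughout: Brca2 had 7.18 per kb in M-MDSC LD and 1.2 in M-MDSC Ctrl, and Exo1 had 4.51 and 1.21.

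The 4 other genes fell short of the minimum mean. Mgmt, which removes alkyl groups from guanine and so bears on alkylating drugs, had 0.0, 3.4 and 0.0 normalized counts in M-MDSC LD, 3.9, 4.8 and 5.6 in M-MDSC Ctrl, 0.0, 14.7 and 0.0 in PMN-MDSC LD and 0.0, 0.0 and 3.2 in PMN-MDSC Ctrl. Xrcc5 (Ku80) reached at most 9.2 and Phlda3 at most 11.6. Ung, the uracil glycosylase, was highest at 10.9 in M-MDSC LD replicate 1. A count of 3 reads corresponds to 1.68 to 4.79 normalized counts in these libraries, and these genes were not tested.

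Of 126 other genes of the same pathways, 112 were tested. In M-MDSC after LD 6 rose and none fell (5.36% called), where 2.54% of all genes tested rose and 0.468% fell. They were Gtse1, a p53-related gene of the G2 phase (2.69 ± 0.68, adjusted p = 0.0483), the checkpoint genes Cdc25b (1.11 ± 0.25, adjusted p = 0.0258), Clspn (1.94 ± 0.44, adjusted p = 0.0258) and H2afx (1.48 ± 0.35, adjusted p = 0.0339), Rad51ap1 (3.22 ± 0.65, adjusted p = 0.0129) and the glycosylase Neil3 (2.66 ± 0.45, adjusted p = 0.00422), by limma. Rad51ap1, a gene of homologous recombination, had 117.4, 44.2 and 27.6 in M-MDSC LD, against 2.6, 5.7 and 6.7 in M-MDSC Ctrl. LD replicate 1 was the highest M-MDSC LD library for each of the 6 genes, and fits without it are not given for them. The other 13 tested p53 targets of that list did not pass in M-MDSC, nor did any of the 14 in PMN-MDSC.

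In PMN-MDSC 2 of the 112 rose and 4 fell (5.36% called), where 7.17% of all genes tested rose and 8.51% fell. Pms1, a mismatch repair gene, was among those that rose (1.25 ± 0.40, adjusted p = 0.0498, limma), at 29.8, 19.1 and 19.6 in LD, against 13.3, 10.5 and 4.8 in Ctrl. Dclre1c (Artemis), the nuclease that opens DNA ends for end joining together with the Prkdc kinase, had 1302.5, 1297.3 and 1403.7 in LD, against 2127.9, 2000.4 and 2699.2 in Ctrl. It fell by 0.76 ± 0.12 on the log2 scale (1.69-fold lower, adjusted p = 0.00119, limma). Neil1, a glycosylase (-1.72 ± 0.48, adjusted p = 0.0279, limma), and Rev3l, a translesion polymerase subunit (-0.60 ± 0.16, adjusted p = 0.0222, limma), fell too. For the difference of the LD changes 0 of 112 passed limma, and 11 were at an unadjusted p under 0.05. Between the populations 58 were higher and 16 lower in M-MDSC in LD mice (66.1% called), where 38.8% of all genes tested were higher and 36.1% lower. In Ctrl mice 51 were higher and 22 lower (65.2% called), where 38.8% of all genes were higher and 36.8% lower. All 6 other mismatch genes were higher in M-MDSC in both treatments. Among the 112 genes Gadd45a, a stress gene that p53 can induce, had log2 differences of -5.69 ± 0.22 in LD and -5.49 ± 0.22 in Ctrl mice, lower in M-MDSC.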

How the data were processed

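The authors deposited a table of signal values, namely normalized counts of 23479 genes in 12 libraries; per the labels, RNA was made into ribosomal-RNA-depleted total RNA libraries. The submitters' processing notes name mm10, STAR 2.5.3a, HTSeq 0.6.1 and DESeq2, with no roles or order. Every value was a whole number of reads times a factor per library (100% within 0.001 reads), so reads were recovered, 8906045 to 16242926 a library, and precision follows those reads, which carry no molecular identifiers.

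The 42 members, the lists and the alternatives were chosen with earlier results of these data known. Values were log2(normalized count + 1), which understates changes of low genes, and the minimum was a mean of 10 over 12 libraries. limma 3.58.1 in R 4.3.3 fitted a mean per group over all 12 libraries, with empirical Bayes, a trend and 8 residual degrees of freedom. P-values are two-sided. All members were named, as were up to 4 called genes of each pathway list, taken in order of adjusted p. A few of those pathway genes are not reported here. Alternatives were edgeR 4.0.16 and DESeq2 1.42.0 on the reads, other pseudocounts, minimums and scaling (TMM), a replicate block and leaving out libraries. Tests were checked on simulated data with 200 changed genes, none of them low, changed in M-MDSC only. No simulated library deviated as LD replicate 1 did, so the check does not cover low genes or that replicate. Exon lengths and overlaps are from GENCODE M21, promoters from RefSeq GRCm38.p6 (33 of 42 members). Python 3.11.15 with pandas 2.3.3 and matplotlib 3.10.9 made tables and figures.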

Additional observations from a re-analysis of the deposited data

Results flagged for a closer look

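The LD libraries of Trp53inp1 lay on opposite sides of the Ctrl libraries in the 2 populations. All M-MDSC LD libraries (425.2, 526.4 and 591.1 normalized counts) were below all M-MDSC Ctrl libraries (636.2, 650.7 and 592.4), while all PMN-MDSC LD libraries (5548.2, 7439.7 and 7792.6) were above all PMN-MDSC Ctrl libraries (5183.2, 4358.6 and 5420.7). In M-MDSC the change was -0.30 ± 0.14 with an adjusted p of 0.39 (limma) and did not pass, and its nearest LD and Ctrl libraries were 591.1 and 592.4. The test of the difference between the LD changes gave -0.76 ± 0.20 on the log2 scale with an adjusted p of 0.0623 (limma), which misses the threshold. It gave an adjusted p of 0.0475 with TMM scaling, 0.0651 with edgeR and 0.0148 with DESeq2. It missed the threshold in 11 of the 12 limma fits that each left out 1 library, whose adjusted p ran from 0.00939 to 0.144.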

How the results depend on the processing

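Members called under the other settings are counts among the 38 tested. Ranges for left-out libraries cover each of the 12 in turn and LD replicate 1 of both populations together. In M-MDSC, members called higher numbered 1 with edgeR, 5 with DESeq2, 2 with the replicate block (Brca1 and Brca2), 2 in a fit of the M-MDSC groups alone and 0 to 2 when a library was left out. Members called lower numbered 1 in that fit and 0 to 1 when a library was left out. All genes called in M-MDSC numbered 549 higher and 174 lower with DESeq2 and 126 lower in the fit of the M-MDSC groups alone, against 283 higher and 52 lower in limma on all groups, and ran from 167 to 433 higher and 20 to 115 lower when a library was left out. Leaving out PMN-MDSC LD replicate 1 gave the highest of these, with Brca1 (adjusted p = 0.0108), Fancd2 and Sesn2 (0.0324 each) called. Leaving out M-MDSC LD replicate 2 called Brca1 (0.043) and Chek1 (0.0343), and PMN-MDSC LD replicate 2 Fancd2 (0.0274).

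In PMN-MDSC, members called higher numbered 1 with no minimum level, and members called lower 0 in the fit of the PMN-MDSC groups alone. Left-out libraries gave 0 to 3 higher and 0 to 5 lower members, and 464 to 1163 higher and 425 to 1295 lower genes in all. For the difference of the LD changes, TMM called 1 member lower and DESeq2 2 higher and 1 lower, and left-out libraries gave 0 to 1 each way. Over all genes that difference gave 56 higher and 69 lower with no minimum level, 368 and 331 with DESeq2, and 48 to 459 higher and 61 to 365 lower when a library was left out, against 131 and 119. The cause of these moves was not tested. Between the populations, called members ran from 15 to 20 higher and 9 to 11 lower in LD, and were 17 higher and 10 to 12 lower in Ctrl, when a library was left out. Same-numbered libraries deviated together weakly or not at all (correlations of -0.05 to 0.21), so the numbers were not taken as pairs; in LD each library correlated best with its own number in the other population, a hint from the data only. No member's call changed sign. Members with few reads, such as Aen, Exo1 and Cdkn1a in PMN-MDSC, are limited by depth.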
